A study of Arabidopsis thaliana with 11 samples.

Results

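The shoots of Arabidopsis thaliana seedlings that overexpress AtNF-YB1 were compared here with wild type shoots across all genes on the array. The samples were chosen by their titles: 4 arrays of 35S::AtNF-YB1 shoots, 2 each of the independent homozygous lines 3 and 6, and 3 arrays of wild type Col-0 shoots, together 7 of the 11 arrays in the study. The remaining 4 arrays held 35S::CBF4 shoots, 2 each of lines 10 and 19, and served here as a second point of reference. The 35S promoter, from a plant virus, is active in most tissues, so the transgene is not limited to a cell type. All seedlings grew on vertical plates under 24 h of light per day, and shoots were cut from the roots at 14 days. Each array held the RNA of a pool of up to 24 seedlings, so no value belongs to a single plant, and differences between whole lines rest on 2 insertions.

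NF-Y is a transcription factor complex built from an A, a B and a C subunit that binds the CCAAT sequence of promoters. The B and C subunits pair through histone-like folds, and the A subunit gives the complex its preference for the sequence. Plants carry many genes for each subunit, and members of the B family are known for roles in embryo development, flowering time and drought tolerance. AtNF-YB1 is one of these B subunits, and overexpression of it is known to improve drought tolerance. The comparison with wild type addresses which shoot transcripts differ in seedlings that were not exposed to a stated stress.

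Levels are given as log2 intensity of a probe set, the unit that reads a transcript on this array, after scaling between arrays. Values below 0.93 log2 were raised to that floor, and a level of 4.02, the median over probe sets, is called here the median brightness. A difference of 1 on this scale is a doubling of intensity, and a difference measured against the floor is smaller than the true one. Of 19371 plant probe sets, 11598 had a gene name, and the rest are cited by their probe set ID. The arrays of a single AtNF-YB1 line correlated at r = 0.971 in both lines, the arrays of different AtNF-YB1 lines at 0.963 to 0.977, and AtNF-YB1 arrays with wild type arrays at 0.963 to 0.980. None of the 36 NF-Y subunit genes, AtNF-YB1 among them, was measured under a name, so the level of the overexpressed transcript was not analysed here.

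The presence of the construct was read from probe sets for the 3′ ends of plant vectors. The NOS probe set gave 705 and 285 intensity units on the arrays of AtNF-YB1 line 3 and 463 and 332 on those of line 6, 154 to 420 on the CBF4 arrays, and 0.50, −0.44 and 52.3 on the 3 wild type arrays. The arrays of both constructs were all above the wild type arrays, and wild type replicate 3 stood apart from the other wild type arrays. The E9 probe set gave 112, 35.9, 2.195 and 94.8 units on the AtNF-YB1 arrays and 504 to 591 on the CBF4 arrays, whereas it read 1164 on wild type replicate 3 and 137 and 88.3 on the other wild type arrays. The NOS difference was 6.36 ± 1.12 log2 (SE, 4 arrays against 3, limma adjusted p = 0.469) with all arrays and 7.81 ± 0.28 (adjusted p = 0.0063) without wild type replicate 3. The array labelled wild type replicate 3 thus carried vector signal, and calls that are lost or gained without it are given below for a part of the probe sets.

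The labelled tissue was checked through its markers. Of 19 shoot markers, 7 were measured under a name, among them the Rubisco activator RCA and the light-harvesting proteins LHCB4.1 and LHB1B2, with a median level of 10.90 log2 in AtNF-YB1 shoots and 10.85 in wild type shoots. Their summed intensity after scaling between arrays was 12338.2 to 12763.5 on the AtNF-YB1 arrays, 12201 to 12507.4 in CBF4 shoots and 11727 to 12528.8 in wild type shoots. Scaling gives every array the same set of values, and these markers lie near its top. Their sums are therefore held alike and cannot compare the groups. Of 14 root markers, 6 were measured, with a summed scaled intensity of 311 to 440 in AtNF-YB1, 221 to 443 in CBF4 and 235 to 516 in wild type. Most of that sum came from PYK10, a glucosidase of endoplasmic reticulum bodies in roots and hypocotyls, at 8.44 log2 in AtNF-YB1 and 8.26 in wild type. Of the root markers, 1 was at the floor on all AtNF-YB1 arrays, 3 on all CBF4 arrays and 0 on all wild type arrays. Markers of seeds and flowers were not measured under a name.

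Few probe sets passed the test between AtNF-YB1 and wild type shoots, which does not show that the others were unchanged. With limma and Benjamini-Hochberg adjustment, 3 of 19371 probe sets passed an adjusted p of 0.05, which is 0.0155%, with 2 higher, 1 lower and 0 with a gene name. An unadjusted p below 0.05 was reached by 778 probe sets, 413 higher (2.13%) and 365 lower (1.88%). Of 19371 tested, 778 is less than the share of 0.05 that this threshold passes where nothing differs. All 4 AtNF-YB1 arrays lay above all 3 wild type arrays for 373 probe sets (1.93%) and below them for 361 (1.86%). Without wild type replicate 3 the number called was 10, with 4 higher and 6 lower. The count moved with every array left out: it was 165 without line 3 replicate 1, 57 without line 3 replicate 2, 54 without line 6 replicate 1, 69 without line 6 replicate 2, 5 and 6 without wild type replicates 1 and 2, and 2 to 10 without a CBF4 array. A line left with 1 array adds nothing to the estimate of the spread, and its part in these counts was not tested.

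**Figure D1:**
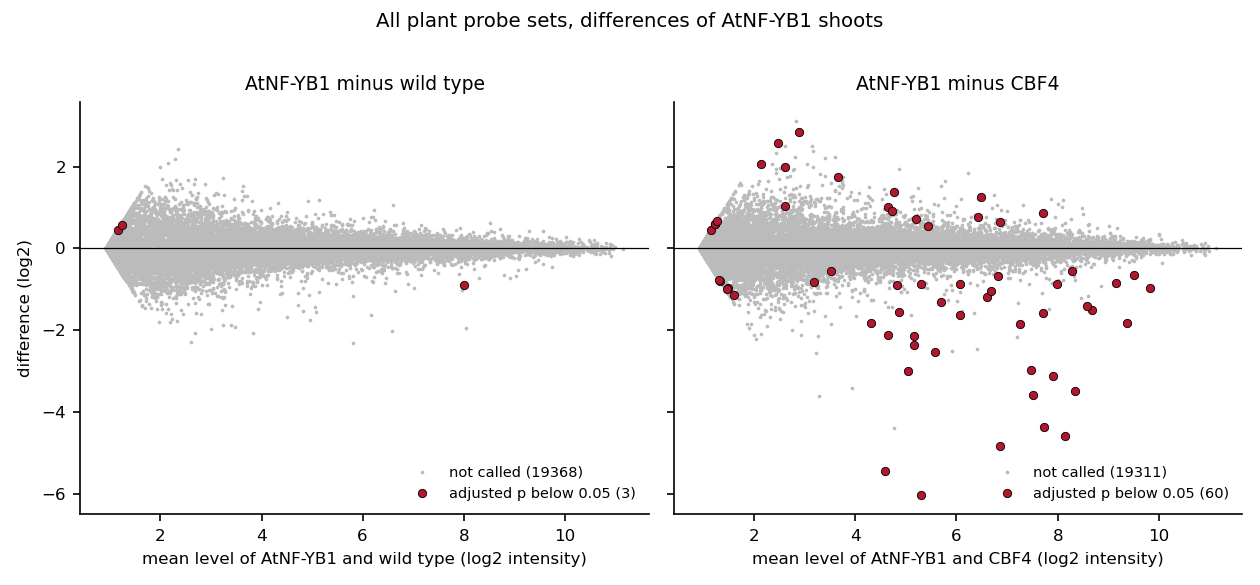
Difference (log2, vertical axis) against mean level (log2 intensity, horizontal axis) of every plant probe set, for AtNF-YB1 minus wild type on the left and AtNF-YB1 minus CBF4 on the right. Red points passed an adjusted p of 0.05, 3 against wild type and 60 against CBF4, and the spread narrows as probe sets become brighter.

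Intervals show how large the differences could be. Among the 9948 probe sets that reached the median brightness, the standard error of the difference had a median of 0.165 log2 and the 95% interval reached a median of 0.394 to either side. The interval lay within 1 log2 unit of 0 for 9067 of them, which is 91.1%, and within 0.5 log2 units for 4719, which is 47.4%. Differences in these probe sets ran from −2.31 to 1.72, with 12 more than 1 log2 unit above wild type and 26 more than 1 unit below it. Their median difference was 0.00, and on each of the 5 chromosomes the median over named genes of this brightness was within 0.01 of 0.

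The probe set that passed at high brightness was MRT3702_25024C.2_at, which fell in the AtNF-YB1 lines. It had 7.42 and 7.51 log2 in line 3 and 7.72 and 7.59 in line 6, against 8.32, 8.49 and 8.55 in wild type and 8.41 to 8.45 on the 4 CBF4 arrays. The AtNF-YB1 arrays were all below every other array, and the CBF4 arrays lay within the wild type range. The difference from wild type was −0.89 ± 0.06 (adjusted p = 0.0218), 1.86-fold lower, and the difference from CBF4 was −0.87 ± 0.06 (adjusted p = 0.00364). Without wild type replicate 3 the difference from wild type was −0.84 ± 0.06 (adjusted p = 0.0389). The call against wild type was kept in 14 of 25 alternatives, which change the processing or leave out arrays. The difference ran from −1.07 to −0.81 over them. The call was lost without scaling, without a floor and with the replicate number as a block. It was also lost with dim probe sets, or those at the floor on all arrays, left out. In each of these the comparison called 0.

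The 2 higher probe sets were above the floor in line 3 and not in line 6, and lay near the floor. MRT3702_17045C.2_at had 2.07 and 2.20 log2 in line 3, was at the floor on both line 6 arrays, and was at 1.02 or the floor in wild type. MRT3702_11388C.2_at had 1.84 on both line 3 arrays and was at the floor in line 6 and in wild type. Their differences over both lines, 0.57 ± 0.04 and 0.46 ± 0.02, are averages of a line that was above the floor and a line that was not. Without wild type replicate 3 the call of MRT3702_17045C.2_at was lost (adjusted p = 0.0528) and that of MRT3702_11388C.2_at was not (adjusted p = 0.00934).

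Several probe sets without a gene name differed by about 1 log2 unit or more with no overlap between the groups, without passing the test. They were chosen after their values were seen. MRT3702_22292C.2_at had 7.14, 7.30, 7.12 and 6.91 log2 on the AtNF-YB1 arrays, against 5.84, 6.04 and 6.32 in wild type, a difference of 1.05 ± 0.15 (adjusted p = 0.332). Its CBF4 arrays, at 5.50 to 6.06, overlapped the wild type ones, and against CBF4 it passed, at 1.26 ± 0.14 (adjusted p = 0.0264). MRT3702_24539C.2_at had 5.13, 6.01, 5.61 and 5.48 in AtNF-YB1, against 7.21, 7.29 and 8.27 in wild type, a difference of −2.03 ± 0.32 (adjusted p = 0.363) that was −1.69 ± 0.24 without wild type replicate 3. MRT3702_192C.2_at had 4.68, 4.73, 4.27 and 3.52 in AtNF-YB1, against 5.52, 5.60 and 6.48 in wild type (difference −1.57 ± 0.28, adjusted p = 0.469) and 6.65 to 6.98 in CBF4 (difference −2.54 ± 0.26, adjusted p = 0.0198). The AtNF-YB1 arrays were below both other groups there.

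Named genes are given next by their p-value against wild type, up to 12 in each direction, among genes at or above the median brightness with both lines on the same side and no overlap with wild type. None of them passed. The 12 on the higher side had differences of 0.28 to 1.41 log2 and adjusted p-values of 0.058 to 0.775. The 12 on the lower side had differences of −0.85 to −0.19 and adjusted p-values of 0.242 to 0.973. As all of them were selected for separated groups, their separation is a description. In direct comparison with CBF4, 2 of the higher and 1 of the lower genes passed.

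**Figure D2:**
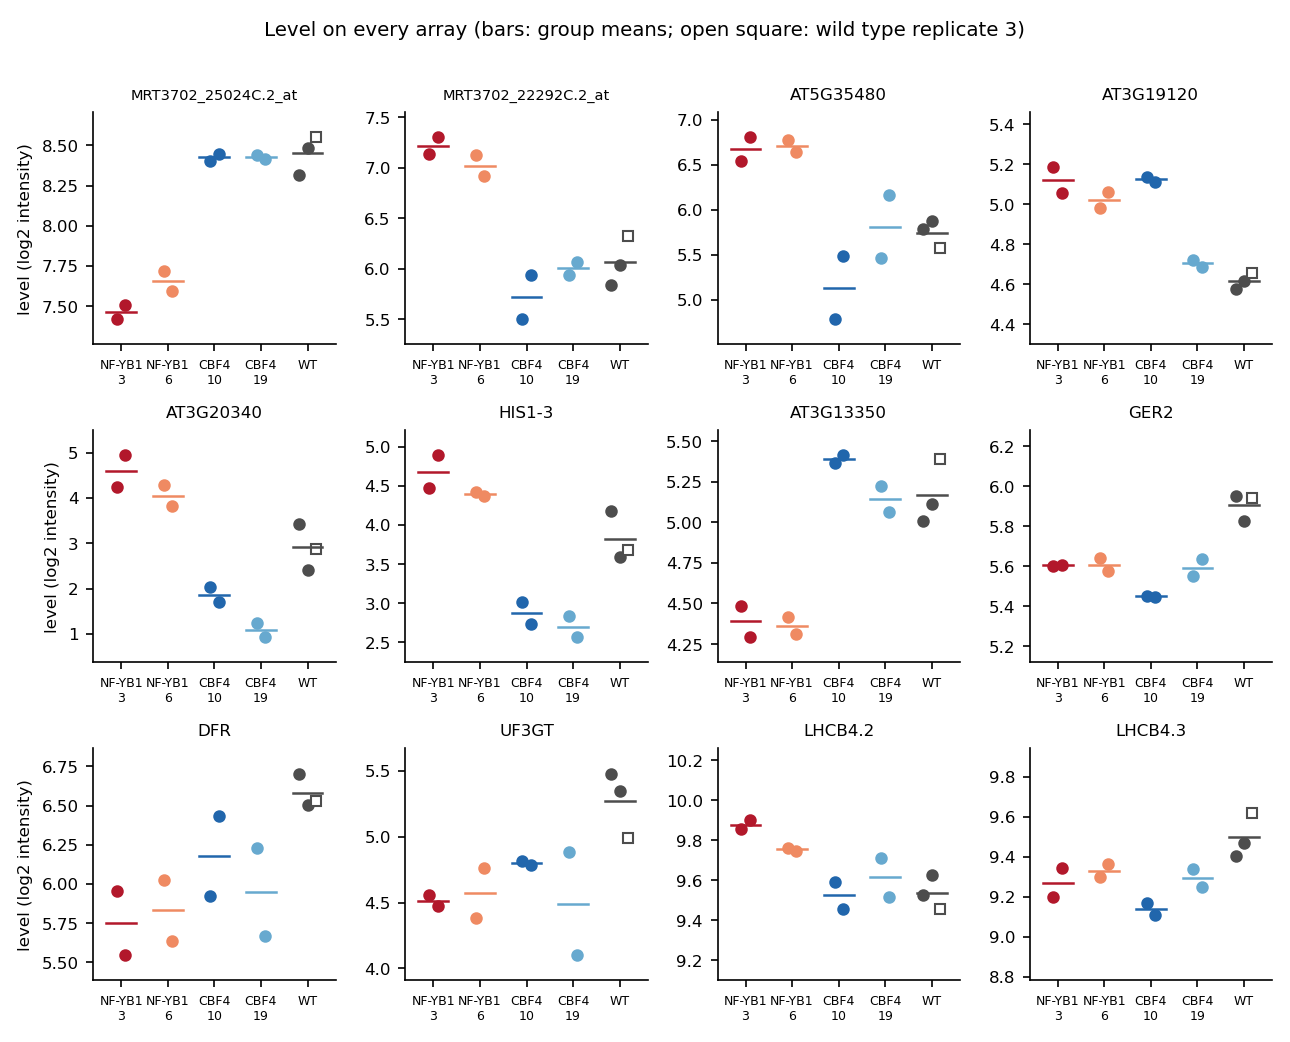
Level (log2 intensity, vertical axis, scaled to each panel) of 12 probe sets on each of the 11 arrays, with AtNF-YB1 lines on the left, then CBF4 lines, then wild type. Points are arrays, bars are group means, and the open square is wild type replicate 3. MRT3702_25024C.2_at and AT3G13350 were lower on all AtNF-YB1 arrays than on every other array, and HIS1-3 and AT3G20340 were higher.

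Among these genes, the smallest p-value belonged to AT3G19120. It had 5.18 and 5.06 log2 in line 3 and 4.98 and 5.06 in line 6, against 4.58, 4.62 and 4.66 in wild type. The difference was 0.45 ± 0.04 (95% interval 0.36 to 0.55, adjusted p = 0.058), and it passed in 7 of 25 alternatives. On the CBF4 arrays it had 5.14 and 5.11 in line 10 and 4.72 and 4.69 in line 19, so line 10 overlapped the AtNF-YB1 arrays and line 19 did not. The difference between the constructs was 0.16 ± 0.04 (adjusted p = 0.272).

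AT3G20340 had the largest difference among the higher genes. It had 4.23, 4.94, 4.29 and 3.81 log2 in AtNF-YB1, against 3.43, 2.42 and 2.88 in wild type, a difference of 1.41 ± 0.29 (95% interval 0.70 to 2.11, adjusted p = 0.585). The CBF4 arrays, at 2.03, 1.70, 1.24 and the floor, were below all wild type arrays. Against CBF4 it was 2.84 ± 0.27 higher (adjusted p = 0.0153), a difference that is a lower estimate because 1 CBF4 array was at the floor.

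AT5G35480 had 6.55, 6.81, 6.77 and 6.64 log2 in AtNF-YB1, against 5.79, 5.87 and 5.57 in wild type (difference 0.95 ± 0.23, adjusted p = 0.775) and 4.79 to 6.16 in CBF4. The AtNF-YB1 arrays formed a tight group above all others.

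AT1G15170 had 5.20, 5.18, 5.17 and 5.05 log2 in AtNF-YB1, against 4.86, 4.60 and 4.50 in wild type (difference 0.50 ± 0.09, adjusted p = 0.488). Its CBF4 arrays, at 4.06 to 4.34, were below all wild type arrays, and AtNF-YB1 was above CBF4 with a 95% interval of 0.79 to 1.21 for the difference (adjusted p = 0.0117). AT2G40570 ran differently, with 4.11 to 4.54 in AtNF-YB1 and 4.29 to 4.46 in CBF4, against 3.37 to 3.84 in wild type. Its difference from wild type was 0.74 ± 0.11 in AtNF-YB1 (adjusted p = 0.363) and 0.79 ± 0.11 in CBF4 (adjusted p = 0.0989), both measured against the same 3 wild type arrays. The difference between the constructs was −0.05 ± 0.11, with a 95% interval of −0.30 to 0.21.

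Among the higher genes with a known role, LHCB4.2, a minor antenna protein of photosystem II also known as CP29, had 9.85, 9.90, 9.76 and 9.74 log2 in AtNF-YB1, against 9.53, 9.63 and 9.46 in wild type. The difference was 0.28 ± 0.06 (adjusted p = 0.745), and a second probe set of the gene gave 0.10 ± 0.07. The close relative LHCB4.3 had 9.20, 9.34, 9.30 and 9.36 in AtNF-YB1, against 9.40, 9.47 and 9.62 in wild type, a difference of −0.20 ± 0.06 (adjusted p = 1). SEU, which encodes the transcriptional co-regulator SEUSS of flower development, had 6.63 to 6.74 in AtNF-YB1, against 6.26 to 6.37 in wild type (difference 0.36 ± 0.08, adjusted p = 0.752). The remaining higher genes were AT5G18460, AT3G10720, AT4G15080, AT5G58100 and AT4G31140, with differences of 0.39 to 0.67. In the same order, CBF4 minus wild type was 0.24, −0.11, 0.39, 0.61 and 0.81.

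On the lower side, AT3G13350 had 4.49, 4.29, 4.41 and 4.31 log2 in AtNF-YB1, against 5.01, 5.11 and 5.39 in wild type. The difference was −0.79 ± 0.10 (95% interval −1.04 to −0.55, adjusted p = 0.242). The CBF4 arrays, at 5.06 to 5.41, overlapped wild type, and against CBF4 the gene fell by 0.89 ± 0.10 (adjusted p = 0.0225). It was the single one of these lower genes that passed the adjusted test against CBF4.

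GER2, which takes part in making GDP-L-fucose, had 5.57 to 5.64 log2 on the AtNF-YB1 arrays, against 5.82 to 5.95 in wild type (difference −0.30 ± 0.04, adjusted p = 0.275). Its CBF4 arrays, at 5.45 to 5.63, overlapped those of AtNF-YB1. CBF4 minus wild type was −0.38 ± 0.04 for GER2 and passed (limma adjusted p = 0.0282). Both constructs were measured against the same wild type arrays. AT4G22240, also named FBN1b, encodes a fibrillin of plastid lipid droplets. It had 8.73 to 8.87 in AtNF-YB1, against 8.95 to 9.08 in wild type (difference −0.19 ± 0.04, adjusted p = 0.49). TBL26, of a family that acetylates cell wall polysaccharides, had 5.75 and 5.83 in line 3 and 6.33 and 6.35 in line 6, against 6.42 to 7.02 in wild type (difference −0.61 ± 0.13, adjusted p = 0.654). The remaining lower genes were AT5G47590, AT3G24670, AT3G62790, AT1G67360, AT5G52810, AT1G06000 and AT5G61450, with differences of −0.85 to −0.31. In the same order, CBF4 minus wild type was −0.24, −0.47, −0.25, 0.09, −0.54, 0.02 and −0.26. DFR, also lower, is described with its pathway.

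Gene groups were read through 34 lists, of which 25 had a measured member. Against wild type 0 members of any list passed the adjusted test, and the counts at an unadjusted p are read beside the shares of 2.13% higher and 1.88% lower for all probe sets and their median difference of 0.00. The lists cover a part of each pathway, since they hold only genes measured under a name.

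The flavonoid list had the lowest median of the lists with more than 1 measured member. All of its 4 measured members were below wild type, with a median of −0.76 log2, and 2 reached an unadjusted p below 0.05. DFR, the reductase that leads into anthocyanin synthesis, had 5.96, 5.55, 6.02 and 5.64 in AtNF-YB1, against 6.70, 6.50 and 6.53 in wild type (difference −0.79 ± 0.20, 95% interval −1.28 to −0.30, adjusted p = 0.861). UF3GT, a sugar transferase of the flavonoid pathway also named UGT79B1, had 4.56, 4.48, 4.38 and 4.76, against 5.48, 5.34 and 4.99 in wild type (difference −0.73 ± 0.21, adjusted p = 0.99). In both genes all AtNF-YB1 arrays were below all wild type arrays and overlapped the CBF4 arrays. The early enzyme CHI, a chalcone isomerase, was at −0.87 ± 1.56, an interval that spans 0 widely, and the isomerase-like CHIL was at −0.11 ± 0.09. Against CBF4 0 of the 4 passed.

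The cold, drought and abscisic acid list had 10 measured members, of which 6 were above and 4 below wild type, with a median of 0.08. The 1 member at an unadjusted p below 0.05 was HIS1-3, a linker histone known to be induced by drought and abscisic acid. It had 4.47, 4.89, 4.42 and 4.36 log2 in AtNF-YB1, against 4.18, 3.59 and 3.68 in wild type and 3.02, 2.74, 2.84 and 2.57 in CBF4. The AtNF-YB1 arrays were above all wild type arrays, which were above all CBF4 arrays. The difference from wild type was 0.72 ± 0.18 (95% interval 0.29 to 1.15, adjusted p = 0.831) and that from CBF4 was 1.75 ± 0.17 (adjusted p = 0.0153). Of the other histone genes measured, HON4, a further linker histone, was at 0.11 ± 0.09, HTB1 and HTB2, a pair of H2B genes, at −0.01 ± 0.13 and 0.10 ± 0.13, and HTR12, the centromeric H3, at −0.35 ± 0.26.

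COR15B, a chloroplast protein that protects membranes in the cold, is the list member whose call turns on wild type replicate 3. Its 2 probe sets are MRT3702_9983C.2_at and MRT3702_9983C.2_s_at. The first had 6.61, 6.34, 6.65 and 6.77 log2 in AtNF-YB1, against 5.42, 5.47 and 6.81 in wild type. The AtNF-YB1 arrays were above wild type replicates 1 and 2 and below replicate 3. The difference was 0.69 ± 0.34 (adjusted p = 1) with all arrays, and 1.14 with adjusted p = 0.0389 without replicate 3. It passed in 1 of 25 alternatives, and with dim probe sets left out as well as replicate 3 the comparison called 0. The second had 5.41 to 5.67 in AtNF-YB1, against 4.83, 4.82 and 5.63 in wild type.

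Among further members of the list, the dehydrin COR47 was at −0.05 ± 0.19, the late embryogenesis protein LEA4-5 at −1.05 ± 1.23, and COR27, a cold- and light-regulated gene, at 0.14 ± 0.36.

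The photosynthesis genes were bright, with a median level of 10.59 log2 in AtNF-YB1. Scaling gives every array the same set of values, and its part in their small standard errors was not tested. Of 14 members, 11 were above and 3 below wild type, with a median of 0.06, differences from −0.20 to 0.12, and 1 at an unadjusted p below 0.05, LHCB4.3. The photosystem subunits PSBW and PSAE-1 were at 0.07 ± 0.04 and 0.07 ± 0.05, and the antenna protein LHB1B2 at 0.10 ± 0.06 (95% interval −0.04 to 0.25). Other probe sets of the same genes, not counted in the list, gave 0.15 ± 0.05 and −0.03 ± 0.07 for PSBW, 0.01 ± 0.07 for PSAE-1 and 0.25 ± 0.12 and 0.21 ± 0.11 for LHB1B2, and that of LHCB4.2 was given above. The Calvin cycle enzymes PRK and SBPASE were at −0.05 ± 0.07 and 0.03 ± 0.08. Against CBF4 0 of the 14 passed.

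Jasmonate and defence genes had 11 measured members, 3 above and 8 below wild type, with a median of −0.23 and 0 at an unadjusted p below 0.05. The plant defensins PDF1.2, PDF1.2b, PDF1.2c and PDF1.3, markers of jasmonate and ethylene signalling, were at −0.72 to −0.50, with standard errors of 0.31 to 0.40. PDF1.2b had 8.89, 8.86, 8.51 and 8.53 log2 in AtNF-YB1, against 9.37, 8.66 and 10.08 in wild type, where replicate 3 was highest and replicate 2 lay inside the AtNF-YB1 range. Without replicate 3 its difference was −0.32. These genes are close copies, so their probe sets can share signal and are not independent readings.

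For the 7 endoplasmic reticulum folding genes the median was 0.05, with BZIP60, a factor of the unfolded protein response, at 0.34 ± 0.26 and the calreticulin CRT1b at −0.24 ± 0.13. The 3 flowering genes measured, SNZ, FY and FPA, were at 0.04 ± 0.14, 0.07 ± 0.18 and −0.09 ± 0.14. Of the 9 auxin genes, IAA30, a repressor of auxin response, had 3.01, 2.83, 3.09 and 2.23 log2, against 1.92, 1.99 and 2.18 in wild type, a difference of 0.76 ± 0.27 (adjusted p = 1) at a low level. The 6 cytokinin genes had a median of 0.00, with the response regulator RR16 at −0.22 ± 0.21 and 3 at the floor on all arrays.

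Among transcription factors, the 9 WRKY genes had a median of −0.15, the 4 AP2/ERF genes −0.11 and the 17 bZIP, bHLH and homeobox genes 0.00, and 0 of these reached an unadjusted p below 0.05. Among enzymes, the 22 cytochrome P450 genes had a median of 0.02, with 1 higher and 1 lower at an unadjusted p below 0.05, CYP71B5 at 0.34 ± 0.12 and CYP71B36 at −0.79 ± 0.28. The 29 cell wall genes had a median of −0.01, with 2 higher and 2 lower. The expansins EXPB1 and EXPA22, which loosen walls, were at 0.52 ± 0.19 and 0.51 ± 0.13, the wall enzyme XTH33 at −0.94 ± 0.19 and the pectin enzyme GAUT15 at −0.50 ± 0.20. XTH33 and EXPA22 were dim, with means of 1.38 and 1.75 log2 in AtNF-YB1 and 2.32 and 1.24 in wild type. The lines went opposite ways for EXPA22, at 1.25 in line 6 and −0.24 in line 3.

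**Figure D3:**
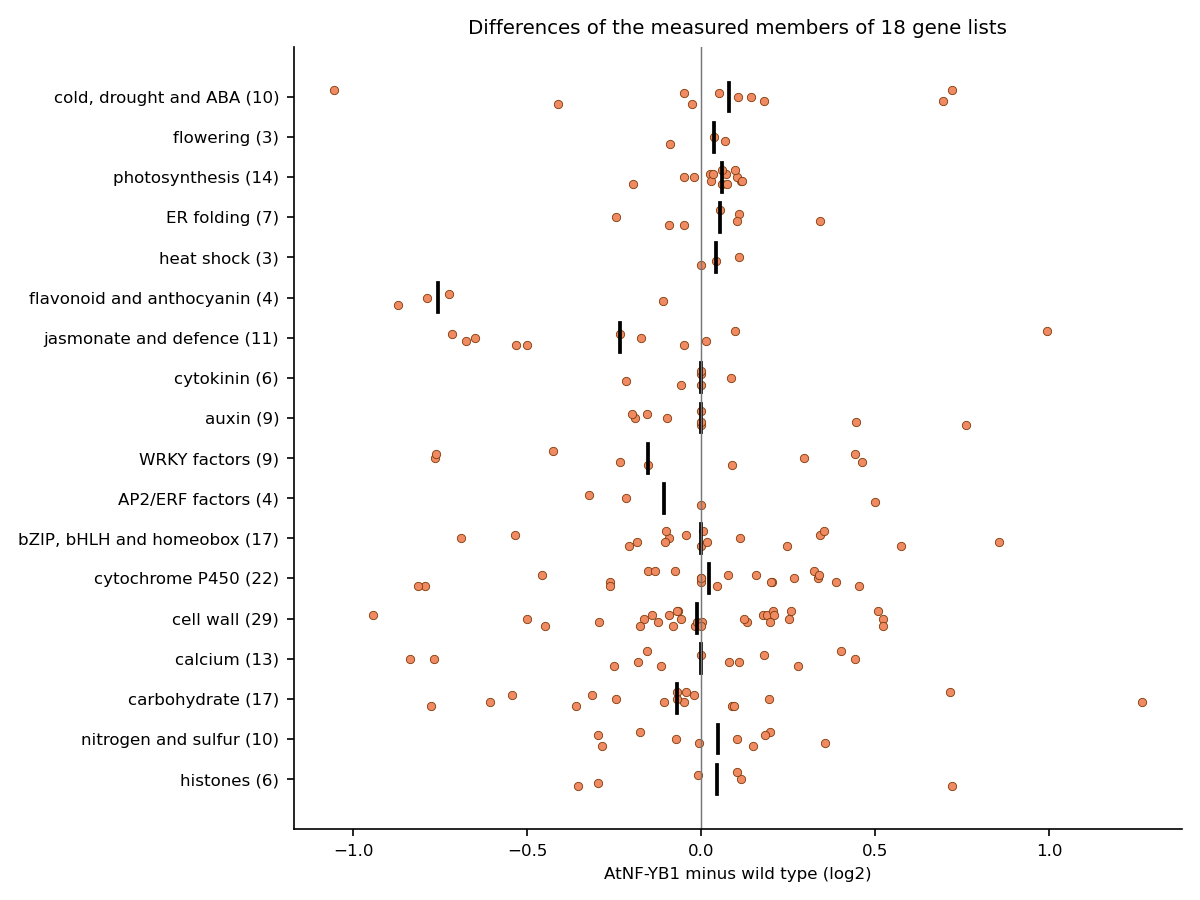
Difference of AtNF-YB1 minus wild type (log2, horizontal axis) for each measured member of 18 gene lists, with the number of members in brackets. Each point is a gene and the black bar is the list's median, which lies at −0.76 for the flavonoid list and between −0.23 and 0.08 for the others.

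Of the 17 carbohydrate genes, 5 were above and 12 below wild type, with a median of −0.07. SWEET6, a sugar transporter, was at 1.26 ± 0.49 and the amylase AMY1 at −0.78 ± 0.27, both dim, with AMY1 at −1.47 in line 6 and −0.09 in line 3, and APL3, a subunit of the first enzyme of starch synthesis, was at −0.61 ± 0.30. The 10 nitrogen and sulfur genes had a median of 0.05. A further 26 families of at least 5 genes with a shared symbol stem, formed after the data were seen, had medians of −0.18 for the ubiquitin protease family UBP to 0.14 for the calmodulin-binding family IQD, and 0 of their members passed. The 40 UGT glycosyltransferases had a median of 0.03.

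Leaving out wild type replicate 3 raised the number called to 10, the same number as without CBF4 line 10 replicate 1 or replicate 2. The 10 calls without wild type replicate 3 held 6 named genes, COR15B and 5 that were dim. Of the dim ones, AT1G48770 was higher and AT5G17820, AT3G03670, AT3G30430 and AT3G42140 were lower. AT1G48770 had 3.47, 3.51, 3.20 and 3.35 log2 in AtNF-YB1, against 1.56, 1.36 and 2.22 in wild type, and the difference was 1.67 ± 0.22 (adjusted p = 0.243) with all arrays and 1.90 ± 0.15 (adjusted p = 0.0389) without replicate 3. AT5G17820, a member of the root marker list, was at the floor on all AtNF-YB1 and CBF4 arrays, against 2.87, 2.37 and 0.98 in wild type. Of the calls without a gene name, not all are described here. The probe set MRT3702_8076C.2_at had 2.86 to 3.05 in AtNF-YB1, against 0.93, 1.03 and 2.33 in wild type and 2.88 to 3.15 in CBF4. All of these were picked because they passed without that array, so where it lies in them is no separate observation. The part of its vector signal in these calls was not tested.

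**Figure D4:**
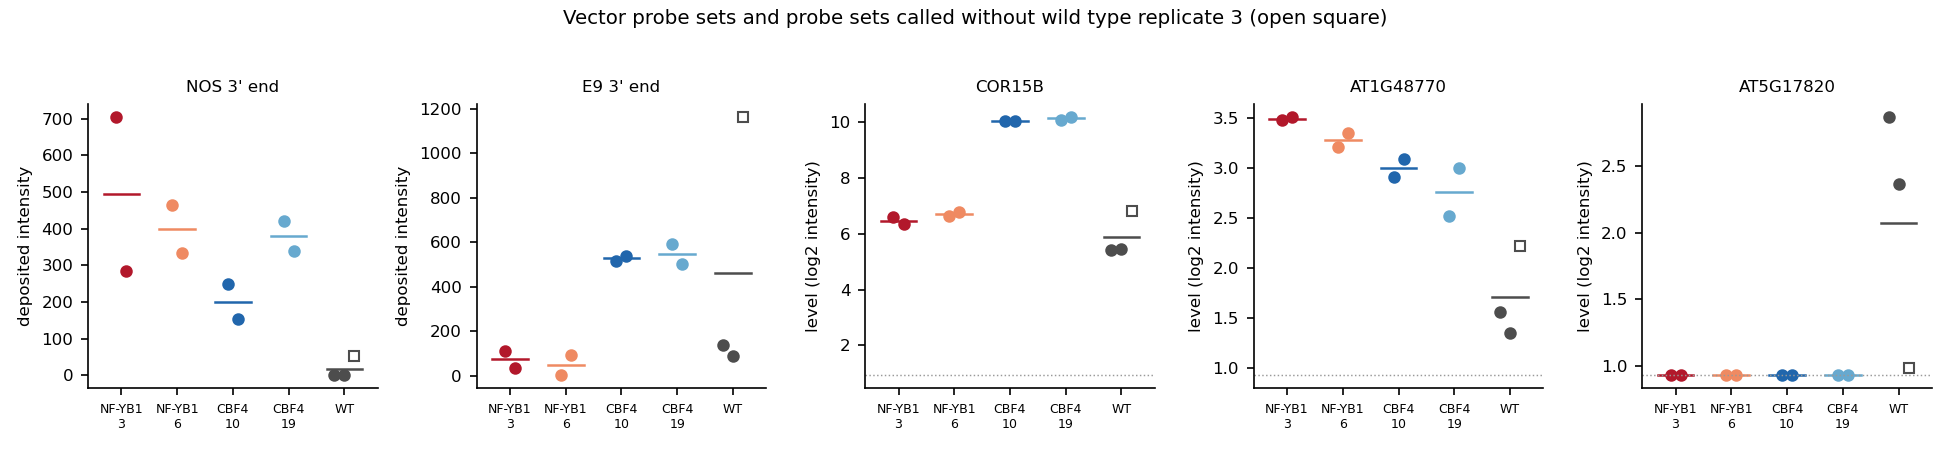
Deposited intensity of the NOS and E9 vector probe sets, and level (log2 intensity) of COR15B, AT1G48770 and AT5G17820, on each array of the AtNF-YB1, CBF4 and wild type shoots. The open square, wild type replicate 3, stands at 52.3 units for NOS and 1164 for E9. The plant genes shown were picked because they passed without it and not with all arrays.

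The lines were also compared singly. For line 3 against wild type 5 probe sets passed (0.0258%), 3 higher and 2 lower, with 828 at an unadjusted p below 0.05. For line 6 against wild type 0 passed (0%), with 687 at an unadjusted p below 0.05. In direct comparison, 5 probe sets passed between line 6 and line 3 (0.0258%), 2 higher and 3 lower in line 6, and all 5 were dim. Between the lines, 809 were at an unadjusted p below 0.05. Of 19371 probe sets tested, 828, 687 and 809 are each less than the share of 0.05 that this threshold passes where nothing differs. Leaving out an AtNF-YB1 array raised these counts to between 14 and 210 for line 3, 1 and 86 for line 6 and 60 and 207 between the lines, while leaving out a wild type array gave 6 to 9, 1 to 2 and 3 to 5. MRT3702_25024C.2_at was at −0.99 ± 0.08 in line 3 (adjusted p = 0.0213) and −0.80 in line 6, with no detected difference between the lines (adjusted p = 1).

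The probe sets that separated the lines had a simple pattern. AT1G13520 had 2.14 and 2.40 log2 in line 3 and was at the floor on both line 6 arrays and all CBF4 and wild type arrays, so line 6 minus line 3 was −1.34 ± 0.08 (adjusted p = 0.00519). AT1G12290 had 1.93 and 2.28 in line 6 and was at the floor on every other array, a difference of 1.18 ± 0.10 (adjusted p = 0.0414). It did not pass without wild type replicate 3 (adjusted p = 0.0977) and passed in 6 of 20 alternatives. AT3G56930 had 3.65 and 3.71 in line 6 and 2.90 and 2.70 in line 3, against 3.61 to 3.67 in wild type, so line 3 stood below all other arrays (line 6 minus line 3, 0.88 ± 0.07, adjusted p = 0.0298). Without wild type replicate 3 this gene passed neither between the lines (adjusted p = 0.071, passed in 8 of 21 alternatives) nor for line 3 against wild type (adjusted p = 0.0529). MRT3702_17045C.2_at and MRT3702_11388C.2_at, raised in line 3, made up the rest, at −1.21 ± 0.05 and −0.91 ± 0.02. Arrays at the floor show no spread, so the standard errors and p-values of all but AT3G56930 understate the spread between pools.

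**Figure D5:**
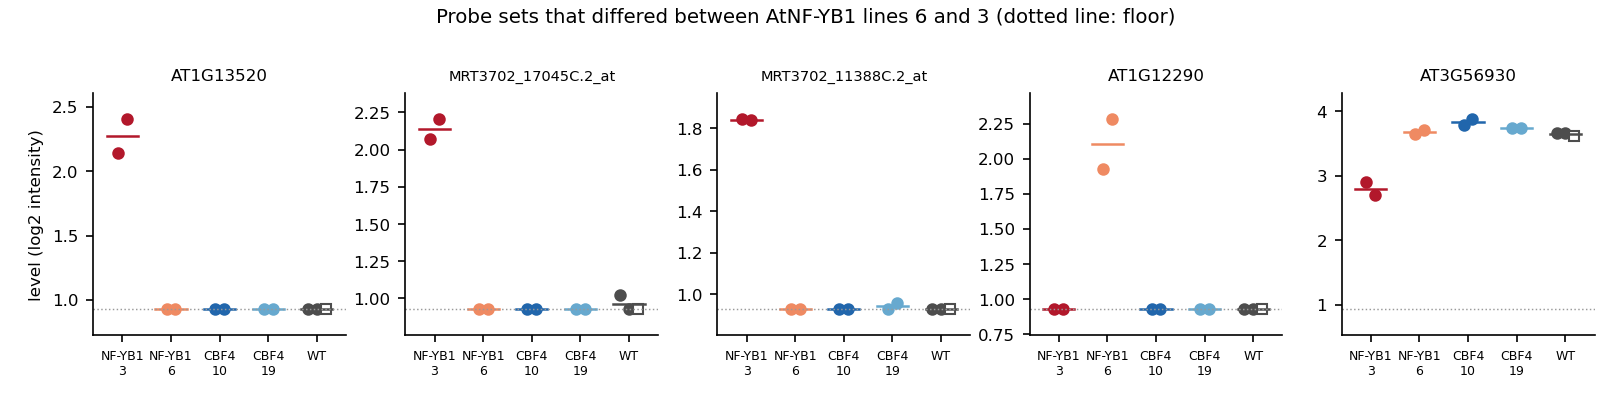
Level (log2 intensity) of the 5 probe sets that differed between AtNF-YB1 lines 6 and 3, on each of the 11 arrays, with the AtNF-YB1 lines on the left. Points are arrays, bars are group means and the dotted line is the floor at 0.93. In AT1G13520, AT1G12290 and both unnamed probe sets a single AtNF-YB1 line was above the floor, and in AT3G56930 line 3 was below all other arrays.

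The comparison with the CBF4 shoots shows how AtNF-YB1 differs from the other construct in the study, and it uses no wild type array as a reference. At the same threshold 60 probe sets passed (0.31%), 19 higher and 41 lower in AtNF-YB1, 38 of them with a gene name and 45 of at least median brightness. The count was 96 to 240 with an AtNF-YB1 array left out, 113 to 159 with a CBF4 array left out and 44 to 64 with a wild type array left out. CBF4 is an activator of cold- and drought-inducible genes, and KIN1, COR15A and COR15B had the largest differences among the named genes given here. KIN1 and KIN2, small proteins induced by cold and abscisic acid, had 4.22 to 4.91 and 8.26 to 8.58 log2 in AtNF-YB1, against 8.87 to 9.64 and 10.21 to 10.31 in CBF4, and were 28.5-fold and 3.55-fold lower in AtNF-YB1. COR15A had 6.13 and 6.59 in line 3 and at most 5.66 in line 6, against 10.34 to 10.50 in CBF4, and was 24.1-fold lower. In wild type shoots KIN1 had 4.38 to 5.35, KIN2 8.12 to 8.49 and COR15A 5.45 to 6.60, and the AtNF-YB1 arrays overlapped these ranges. COR15B was 20.7-fold lower than in CBF4 on MRT3702_9983C.2_s_at and 11.3-fold lower on MRT3702_9983C.2_at. For KIN2 and COR15B, replicate 3 was the single wild type array that was not below all AtNF-YB1 arrays.

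Of the genes that were higher in AtNF-YB1 than in CBF4, AT3G20340, HIS1-3 and AT1G15170 also lay above all wild type arrays and were given above. AT1G71140 had 5.38, 5.34, 4.96 and 5.11 log2 in AtNF-YB1, against 4.19 to 4.31 in CBF4 (difference 0.92 ± 0.07, adjusted p = 0.00753) and 4.87 to 5.14 in wild type. APS3, an enzyme of sulfate assimilation, had 6.84, 6.65, 6.86 and 6.85, against 5.81 to 6.22 in CBF4 (difference 0.77 ± 0.10, adjusted p = 0.0422) and 6.62 to 6.69 in wild type. Its call was lost without wild type replicate 3 (adjusted p = 0.0888) and passed in 11 of 24 alternatives. AT1G31550 had 5.64 to 5.78 in AtNF-YB1, against 4.87 to 5.39 in CBF4 (difference 0.56 ± 0.05, adjusted p = 0.0153) and 5.84 to 5.90 in wild type, and was below wild type on all 4 arrays.

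AT3G23550 and AT1G71970 passed against CBF4 while their lines stood apart. AT3G23550 had 5.88 and 5.92 log2 in line 3 and 5.22 and 4.82 in line 6, against 3.80 to 4.31 in CBF4 and 5.41 to 5.78 in wild type. AT1G71970 had 5.86 and 5.93 in line 3 and 5.19 and 5.20 in line 6, against 4.69 to 4.96 in CBF4 and 5.25 to 5.52 in wild type. In both genes line 3 was above and line 6 below every wild type array, and neither line difference passed. Without wild type replicate 3 AT1G71970 no longer passed against CBF4 (adjusted p = 0.0604, passed in 10 of 24 alternatives).

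Lower in AtNF-YB1 than in CBF4, outside the cold-regulated genes, were AT1G68500, AT3G17130, AT1G14580, AT3G09540 and AT5G62350, by 0.65 to 2.36 log2. AT1G14580 had 3.84 to 4.23 in AtNF-YB1, against 5.57 to 5.69 in CBF4 and 4.14 to 4.47 in wild type. AT5G62350, the brightest, had 9.10 to 9.25, against 9.75 to 9.89 in CBF4 and 9.18 to 9.40 in wild type. In all of these the AtNF-YB1 values were closer to wild type than to CBF4, with differences from wild type of −0.24 to 0.27.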

How the data were processed

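Per the labels' protocols, RNA was isolated with RNeasy, amplified with MessageAmp and labelled with biotin, and 1 array of a custom Affymetrix design was hybridized per pool. The values are probe set intensities as deposited, on a linear scale with 13.4% below 0. The sources used here do not give the summarization or background correction. Quantile normalization over 11 arrays was applied to the 3 vector and 19371 plant probe sets, and values were raised to the 20th percentile (1.90 intensity units) and turned into log2, and 284 control probe sets were left out. Names came from the platform annotation, matched to RefSeq (TAIR10.1) for 11547 probe sets, with 1 probe set per gene in the lists.

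Differences were tested with limma 3.58.1 (R 4.3.3, two-sided, Benjamini-Hochberg) in 1 fit of 5 line groups over 11 arrays with 6 residual degrees of freedom. AtNF-YB1 is the mean of its 2 line coefficients. The labels do not say whether pools were grown apart, and p-values cover only the spread between them. The number of arrays limits the precision. The fit was tested on simulated data with known changes, where it recovered most of them and also called more unchanged probe sets than the adjusted threshold allows. The genes, lists and members described were chosen with earlier results of these data known. Named genes were all calls against wild type, up to 12 per direction by p, up to 10 per direction against CBF4, up to 4 per list and the vector probe sets. Without replicate numbers that pair the samples (7 of 20 same-numbered pairs correlated above 0.1), no block was used. Deviations from the mean of a line's 2 arrays mirror each other, so pairs between such lines repeat the same value and are not independent. Values were drawn with matplotlib 3.10.9.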

Additional observations from a re-analysis of the deposited data

Results flagged for a closer look

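The 5 probe sets that passed between the AtNF-YB1 lines are set out here because the lines share a construct. Line 6 minus line 3 was 1.18 log2 for AT1G12290 and 0.88 for AT3G56930, and −1.34 for AT1G13520, −1.21 for MRT3702_17045C.2_at and −0.91 for MRT3702_11388C.2_at. Each rests on 2 arrays a line, and all but AT3G56930 are differences from the floor, where arrays show no spread.

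The vector probe sets gave signal on an array labelled wild type. Wild type replicate 3 had 52.3 units of NOS and 1164 units of E9, where wild type replicates 1 and 2 had 0.50 and −0.44 units of NOS and 137 and 88.3 of E9.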

How the results depend on the processing

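Over the alternatives, the number of probe sets called moved most. With all arrays it was 3 for AtNF-YB1 against wild type, 5 for line 3 and 0 for line 6 against wild type, 5 for line 6 against line 3 and 60 for AtNF-YB1 against CBF4, and the counts below keep that order. Without scaling they were 0, 0, 1, 1 and 9. Without a floor, line 3 and AtNF-YB1 against wild type and line 6 against line 3 gave 0 and AtNF-YB1 against CBF4 36. These same comparisons also gave 0 with dim probe sets left out, with those never above the floor left out, and with dim probe sets and wild type replicate 3 left out, where AtNF-YB1 against CBF4 gave 101. A floor at the 30th percentile gave 7, 12, 3 and 10 for the first 4. The 7 arrays alone gave 5 for AtNF-YB1 and 4 for line 6 against wild type and 10 between the lines. For AtNF-YB1 against wild type, pooling the lines gave 1, array weights 5 and line as a random block 15, which gave 117 against CBF4. A trended variance gave 2 for line 6. With the replicate number as a block, AtNF-YB1 against wild type gave 0, line 3 1, line 6 against line 3 1 and AtNF-YB1 against CBF4 21. The numbers share no stated batch, and same-numbered pairs correlated from −0.469 to 0.414. Leaving out 1 array at a time gave 2 to 165, 4 to 210, 0 to 86, 3 to 207 and 44 to 240, with 165 and 210 reached without line 3 replicate 1. The cause of these moves was not tested, other than that fewer probe sets or arrays enter some of them.

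A floor at the 30th percentile set to 0 the differences of MRT3702_11388C.2_at and MRT3702_17045C.2_at, in AtNF-YB1 and line 3 against wild type and between the lines, and those of NRT2.5 and LCR26, which lie below that floor. Signs turned for WRKY53 (0.0039 without wild type replicate 1, against −0.37 at the lowest without an array) and GLR2.3 (0.0029 without wild type replicate 2, against −1.16 at the lowest), and without scaling for WRKY20 (−0.13), APS3 (−0.061) and HON4 (−0.063), all against wild type. The floor at the 10th percentile was not run, since that percentile is below 0. Dim probe sets give differences that the floor shrinks, and 7 arrays limit the precision.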
